A study of Homo sapiens with 60 samples.

Results

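Scutellariae Radix is the dried root of skullcap (Scutellaria baicalensis), a herbal drug known for flavones such as baicalin, baicalein and wogonin. Its water extract was given to HT29 cells, an established human colorectal adenocarcinoma line, at 100 µg/mL (medium dose) and at 20 µg/mL (low dose), with 3 RNA-seq libraries at each dose. These 6 libraries, chosen by their sample labels, are 6 of the 60 in the series. All libraries are HT29 cells collected 24 h after treatment. The others used here are the 3 of the same extract at 500 µg/mL (high dose), 3 each of a Pinelliae Tuber water extract at 100 and 20 µg/mL from the same set by their codes, and 3 of the vehicle, 0.1% DMSO on the sample labels (the series text gives 2%). The vehicle belongs to a set with another code, so its levels are shown with no test against them. The remaining groups are wortmannin at 10 µM and other water extracts. Nothing in the labels says whether the 3 libraries of a dose came from separate cultures. Every p-value of the main fit rests on the spread between libraries within groups, estimated over all 60 libraries, and this spread may be technical. HT29 is 1 cell line, and the composition of the extract was not measured here.

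Total counts were 26.5 to 28.7 M (1 M is 1000000 counts) at the medium dose, 16.7 to 27.6 M at the low dose and 11.1 to 34.4 M over all 60 libraries. In a principal component analysis of the 6 libraries, the first component held 26.8% of the variance and placed the medium libraries at 13.7 to 19.0 and the low libraries at -27.0 to -8.99. The shallowest library, low replicate 1, lay farthest out. Of 12 epithelial markers, none was at 0 at either dose, and their summed level was 12243.1 to 13815.2 CPM (counts per 1000000 library counts, scaled by edgeR's TMM factors) at the medium dose and 12254.4 to 12915.5 CPM at the low dose. All 10 fibroblast markers together came to 3.2 to 3.9 CPM at the medium and 3.2 to 3.7 CPM at the low dose, with PDGFRA and COL1A2 at 0 in both. For 10 immune markers the sums were 1595.7 to 1657.3 and 1631.8 to 1793.4 CPM. At least 99.2% of each immune sum was LYZ, lysozyme, which secretory epithelium also makes, and MS4A1 and CD3D were at 0 in both groups.

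The medium against low step asks what a 5-fold increase of 1 extract changes within 1 set. Among changed genes of at least 5 CPM whose libraries did not overlap between doses, cytochrome P450 genes of the aryl hydrocarbon receptor rose most. Smaller rises were seen in 11 of 16 NRF2 targets, among them SLC7A11, GCLM and TXNRD1. The colonic NADPH oxidase NOX1, 3 Wnt and stem cell genes and 8 interferon response genes fell. Most of the 8 interferon falls lost significance without low replicate 3. That of the stem cell gene ASCL2 did so without medium replicate 1 or low replicate 2. By edgeR's quasi-likelihood test with Benjamini-Hochberg adjustment, 556 of 16608 genes had an adjusted p below 0.05 (called genes, 3.35% of those tested). Of these, 295 were higher at the medium dose (1.78% of genes tested) and 261 lower (1.57%). Most changes were small, with a median absolute log2 change of 0.35 over the called genes and of all genes tested a median log2 change of -0.0022. Only 21 called genes rose at least 2-fold and 16 fell to 50% or less, and all 16 of the latter, with 10 of the former, stayed under 5 CPM in both groups. The medium and low libraries overlapped in 5 of the 556 called genes; over all genes tested they did not overlap in 22.1%. The number of called genes was 306 without low replicate 3, 345 without medium replicate 1 and 355 without low replicate 2.

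The aryl hydrocarbon receptor (AhR) is a ligand-activated transcription factor held in the cytoplasm by HSP90 and co-chaperones. Planar aromatic compounds, including many plant flavonoids, bind it. It then pairs with ARNT at sites with the core GCGTG and switches on enzymes such as CYP1A1, which in turn oxidise such compounds. NRF2 (gene NFE2L2) is a second sensor: electrophiles release it from KEAP1, and it acts with small MAF proteins at antioxidant response elements of the form TGACNNNGC. In gut epithelium both are known for handling compounds from food.

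The promoters of 3 called AhR targets and 1 called NRF2 target are shown, from genes with an entry in the RefSeq table of promoters. CYP1B1 and ALDH3A1 rose more than TIPARP, and SLC7A11 more than GCLM, but had no entry. Each run is the 250 bases before the RefSeq start site (GRCh38.p14, gene strand), with GCGTG in the first 3 and TGACNNNGC in the last in capitals, on either strand. They are CYP1A1 at chr15:74725529-74725778 on the minus strand, TIPARP at chr3:156674340-156674589 on the plus strand (the first of 3 promoters listed), ALDH1A3 at chr15:100879581-100879830 on the plus strand and GCLM at chr1:93909431-93909680 on the minus strand.
CYP1A1: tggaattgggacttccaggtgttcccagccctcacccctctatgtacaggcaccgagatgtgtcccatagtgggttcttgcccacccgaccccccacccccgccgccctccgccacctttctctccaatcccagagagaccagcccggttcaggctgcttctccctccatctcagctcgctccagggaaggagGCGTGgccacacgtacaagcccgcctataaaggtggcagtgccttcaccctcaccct
TIPARP: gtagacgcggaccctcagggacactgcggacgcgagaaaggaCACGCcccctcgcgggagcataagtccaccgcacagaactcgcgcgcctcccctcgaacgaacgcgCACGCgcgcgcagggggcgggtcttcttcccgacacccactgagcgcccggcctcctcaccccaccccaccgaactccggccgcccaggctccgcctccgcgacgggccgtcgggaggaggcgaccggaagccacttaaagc
ALDH1A3: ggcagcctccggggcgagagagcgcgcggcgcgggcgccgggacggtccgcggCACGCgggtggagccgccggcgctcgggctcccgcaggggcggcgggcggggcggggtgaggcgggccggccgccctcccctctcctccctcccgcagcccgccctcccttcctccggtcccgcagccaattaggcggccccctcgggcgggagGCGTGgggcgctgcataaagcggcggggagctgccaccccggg
GCLM: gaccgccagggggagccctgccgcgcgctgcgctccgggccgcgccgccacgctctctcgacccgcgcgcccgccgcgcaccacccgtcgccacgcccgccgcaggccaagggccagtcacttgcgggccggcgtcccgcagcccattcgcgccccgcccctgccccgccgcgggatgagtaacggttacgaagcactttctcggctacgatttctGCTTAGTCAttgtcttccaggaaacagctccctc
The CYP1A1 window held 1 such core, 57 bases before the start site. TIPARP held 2, beginning 208 and 142 bases before it, and ALDH1A3 held 2, beginning 197 and 43 bases before it. In GCLM the antioxidant element began 34 bases before the start. The core GCGTG occurred in the promoters of 8 of the 8 tested AhR targets that had an entry in the RefSeq table, and in 32.2% of all 35116 promoters. TGACNNNGC occurred in 3 of the 11 tested NRF2 targets with an entry (GCLM, GPX2 and TXNRD1), and in 10.9% of all promoters. These matches describe letters in a window and say nothing of binding.

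CYP1A1, a P450 enzyme strongly induced by AhR, was at 4.00, 2.39 and 2.29 CPM in the 3 low libraries and at 151.6, 158.9 and 166.6 CPM in the 3 medium libraries. Its counts were 51 to 68 at the low and 3964 to 4570 at the medium dose, so no library of either group came near the other. The log2 change was 5.83 ± 0.12 (SE), a 57.0-fold rise, with an edgeR adjusted p of 4.55e-38. The gene lies at chr15:74719542-74725610 (GRCh38, GENCODE 29). At 500 µg/mL the level was lower again, at 58.1, 54.7 and 58.2 CPM, and in the vehicle it was 0.46 to 0.70 CPM. Across the other 17 groups the group means ran from 0.28 to 196.2 CPM, the highest in Coptidis Rhizoma at its high dose.

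CYP1B1, a related P450 that also acts on oestrogens, was at 137.7, 96.9 and 93.0 CPM in the low libraries and at 467.9, 449.3 and 438.6 CPM in the medium libraries. Its log2 change was 2.06 ± 0.08 (SE, edgeR adjusted p = 1.02e-25). Its antisense partner CYP1B1-AS1 overlaps it (chr2:38073447-38231651 against chr2:38066973-38109902) and rose by a log2 change of 1.16. Since the strand setting of the counting is not given in the sources used here, that antisense value is uncertain. ALDH1A3, which makes retinoic acid from retinal, was at 41.3, 34.0 and 32.0 CPM in the low and at 113.8, 118.8 and 116.5 CPM in the medium libraries. The 3 medium values lay close together and far above the low ones, a log2 change of 1.71 ± 0.07 (SE, edgeR adjusted p = 1.46e-25).

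TIPARP, an ADP-ribosyltransferase that AhR induces and that represses AhR in turn, was at 118.3, 93.5 and 93.0 CPM in the low and at 230.1, 209.4 and 207.4 CPM in the medium libraries, a log2 change of 1.09 ± 0.08 (SE, edgeR adjusted p = 5.15e-14). In all 4 of these AhR targets the highest low-dose value was that of low replicate 1. ALDH3A1, an aldehyde dehydrogenase under both AhR and NRF2, went from 22.9 to 24.7 CPM at the low dose to 56.3 to 64.8 CPM at the medium dose (log2 change 1.36 ± 0.09, SE, edgeR adjusted p = 4.56e-16). EREG, an EGF family ligand, rose by a log2 change of 0.89, the glucuronosyltransferase UGT1A6 by 0.51, the amino acid transporter SLC7A5 by 0.30 and NFE2L2 itself by 0.22.

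Of 12 listed AhR targets, 10 were tested and 9 of those rose, against 1.78% of all genes that rose; CYP1A2 and LRAT did not pass the filter on low counts. The median log2 change over the 10 was 0.99, against -0.0022 over all genes tested. The 9 calls held in all 13 alternative analyses. AHRR, the AhR repressor, was the member not called: its low libraries were at 4.88, 5.24 and 4.29 CPM and its medium libraries at 5.35, 5.79 and 5.73 CPM (log2 change 0.24 ± 0.12, SE, edgeR adjusted p = 0.359). AHR itself was at 105.0, 117.2 and 118.3 CPM in the low and 117.0, 105.8 and 116.2 CPM in the medium libraries, groups that overlap. Its log2 change of -0.0080 had a 95% interval of -0.15 to 0.13. None of the 6 tested genes of the receptor complex was called, with log2 changes from -0.14 (ARNT) to 0.21 (HSP90AA1). HSP90AA1 was called higher with no filter on low counts (edgeR adjusted p = 0.033) and with the 6 libraries alone (0.0155). It was also called with the 9 Scutellariae Radix libraries (0.0027) and with a replicate block on the 6 (0.0065).

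**Figure D1:**
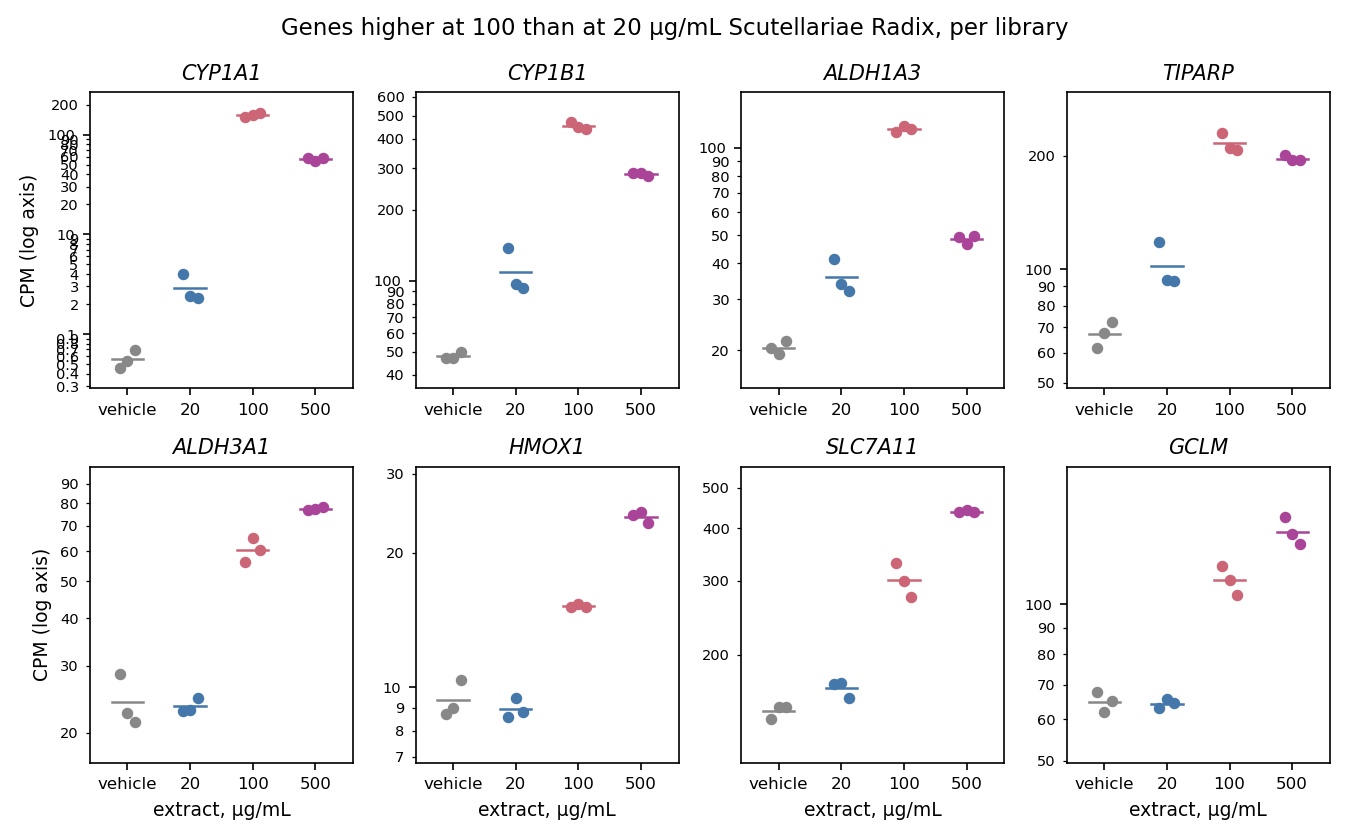
CPM (log axis) of 8 genes in each library of the vehicle and of Scutellariae Radix at 20, 100 and 500 µg/mL; points are libraries, lines are means of 3, and the vehicle is from another set. CYP1A1, CYP1B1 and ALDH1A3 stand highest at 100 µg/mL, while ALDH3A1, HMOX1, SLC7A11 and GCLM stand highest at 500 µg/mL.

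NRF2 targets moved in the same direction by smaller steps. The cystine importer SLC7A11, which supplies cysteine for glutathione, was at 170, 172 and 158 CPM in the low and at 332, 299 and 275 CPM in the medium libraries. That is a log2 change of 0.86 ± 0.07 (SE, edgeR adjusted p = 2.42e-13). GCLM, the regulatory subunit of the enzyme that makes the glutathione precursor, went from 63.0, 65.6 and 64.5 CPM to 118, 112 and 104 CPM, with no overlap (log2 change 0.79 ± 0.06, SE, edgeR adjusted p = 4.41e-14). Its catalytic partner GCLC rose by a log2 change of 0.50. HMOX1, haem oxygenase, was at 8.58, 9.45 and 8.83 CPM in the low and at 15.1, 15.3 and 15.1 CPM in the medium libraries (log2 change 0.76 ± 0.08, SE, edgeR adjusted p = 1.80e-09). Thioredoxin reductase TXNRD1 rose by 0.61, OSGIN1 by 0.61, the quinone reductase NQO1 by 0.47, sulfiredoxin SRXN1 by 0.40 and glutathione reductase GSR by 0.25 on the log2 scale.

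In all, 11 of 16 tested NRF2 targets rose and none fell, against 1.78% of all genes that rose. The median log2 change was 0.38, and all 16 were positive. The count was 9 to 10 with any 1 of the 6 libraries left out. PIR (0.35) and SQSTM1 (0.20) were the weakest of the 11 by edgeR adjusted p, at 0.031 and 0.041. SQSTM1 lost its call with any 1 of the 6 libraries left out, and PIR without medium replicate 2 or low replicate 2 or 3.

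Among 8 tested aldo-keto reductases, which reduce aldehydes and ketones with NADPH, 4 rose, against 1.78% of all genes, and 4 were not called. AKR1B10 was at 119, 114 and 115 CPM in the low and at 204, 205 and 192 CPM in the medium libraries, a log2 change of 0.79 ± 0.07 (SE, edgeR adjusted p = 3.08e-12). AKR1C1, AKR1C2 and AKR1C3 rose by 0.58, 0.54 and 0.60, but these genes are near-identical and reads may have been split between them. The count was 3 without medium replicate 2 or 3 or low replicate 1 or 2, where AKR1C3 lost its call. Among genes of NADPH supply, malic enzyme ME1 (0.38) and transketolase TKT (0.24) rose, and the cytosolic isocitrate dehydrogenase IDH1 fell by 0.24 on the log2 scale.

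Of 21 tested genes of conjugation and efflux, 6 rose and none fell, against 1.78% and 1.57% of all genes. Bilirubin glucuronosyltransferase UGT1A1 was at 50.3, 47.5 and 44.5 CPM in the low and at 73.1, 66.7 and 70.2 CPM in the medium libraries, without overlap (log2 change 0.56 ± 0.07, SE, edgeR adjusted p = 1.88e-08). UGT1A6 (0.51) and UGT1A10 (0.28) rose with it. The UGT1A genes share their last exons, so the division of reads among them is an estimate. The canalicular export pump ABCC2 had the largest log2 change, 0.98 ± 0.27 (SE), from 0.75 to 1.18 CPM to 1.46 to 2.41 CPM, and an edgeR adjusted p of 0.026. The count was 3 without medium replicate 2 or low replicate 2, and ABCC2 lost its call without medium replicate 1 or 2 or low replicate 2 or 3. SULT1A4, a phenol sulfotransferase, rose from 1.45 to 3.35 CPM to 5.43 to 6.49 CPM (log2 change 1.41 ± 0.41, SE, edgeR adjusted p = 0.043). Its near-identical copy SULT1A3, named after its values were seen, went the other way, from 2.97 to 4.47 CPM to 1.35 to 1.49 CPM without a call (edgeR adjusted p = 0.259), so the SULT1A4 value is uncertain. SULT1A4 lost its call with any 1 library but low replicate 1 left out, with edgeR adjusted p from 0.088 to 0.249. SULT1A3 was called lower with no filter on low counts, with the 6 libraries alone and with a replicate block on those 6 (edgeR adjusted p = 2.43e-11, 8.37e-05 and 4.24e-05).

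In the list of iron and haem genes, 5 of 14 tested genes rose, against 1.78% of all genes, and 2 fell, against 1.57%. Ferritin heavy chain FTH1, which stores iron, rose by a log2 change of 0.37, and the haem synthesis enzymes ALAS1 and FECH rose by 0.26 and 0.25. The iron exporter SLC40A1 was at 128, 131 and 140 CPM in the low and at 99.2, 102 and 99.6 CPM in the medium libraries. It fell by 0.41 on the log2 scale (edgeR adjusted p = 2.87e-06), and the metalloreductase STEAP4 fell by 0.53. The other 2 that rose were HMOX1 and the haem transporter SLC48A1, and 7 of the 14, the iron importer TFRC among them, were not called. The count of those that rose was 3 without medium replicate 1 or 3 or low replicate 2. FTH1 lost its call without medium replicate 2 or 3 or low replicate 1 or 2. FECH lost it without medium replicate 1 or 3 or low replicate 2 or 3. FECH was also not called with the 6 libraries alone or with no filter on low counts. SLC48A1 lost its call without medium replicate 1 and with no filter on low counts.

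**Figure D2:**
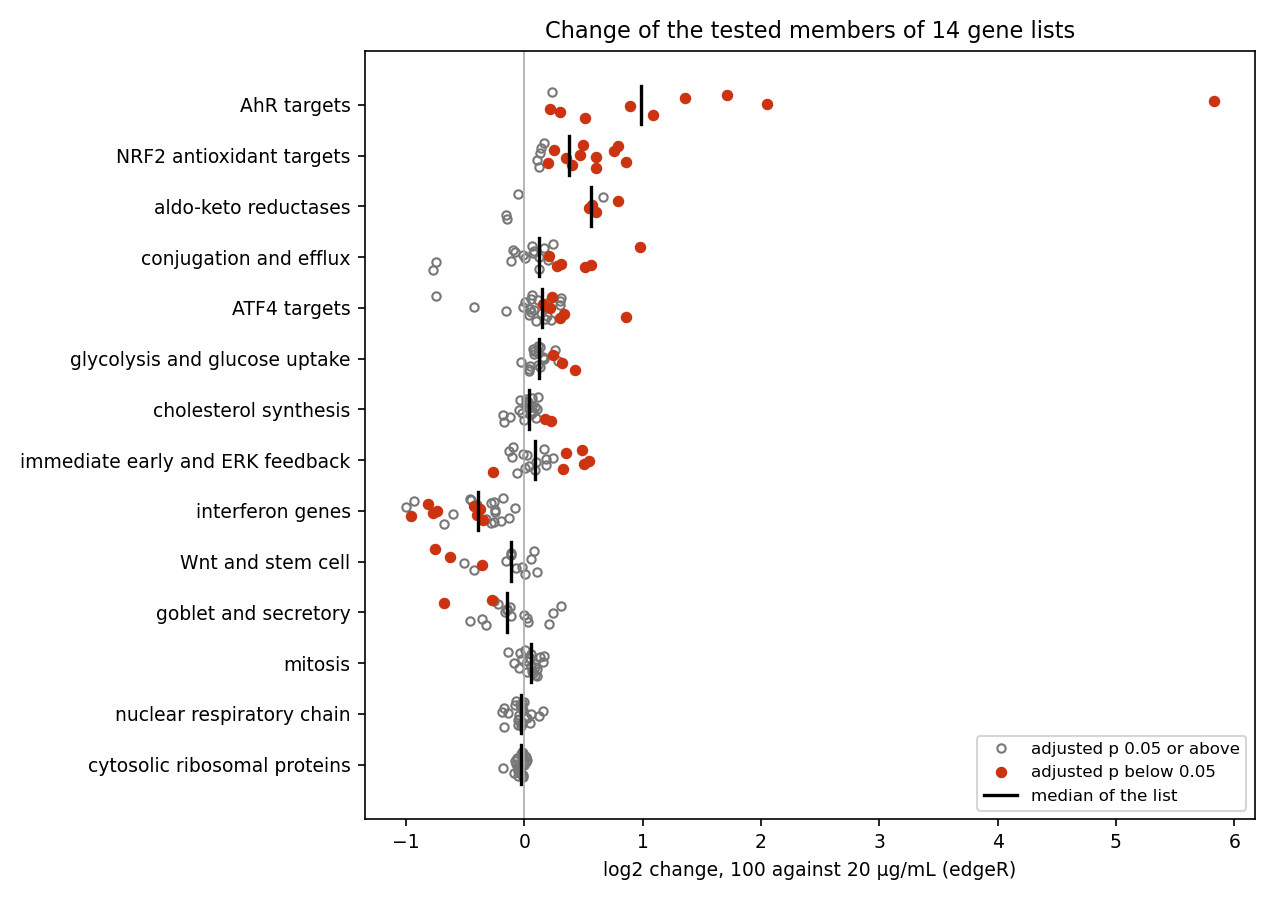
Log2 change at 100 against 20 µg/mL for each tested member of 14 gene lists; filled points have an adjusted p below 0.05 in edgeR, open points do not, and the black line is the median of the list. The AhR and NRF2 lists lie to the right of 0 and the interferon list to the left, while the mitosis, respiratory chain and ribosomal protein lists hold no called gene.

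Nutrient genes changed in a few members. SLC2A1, a glucose importer, was at 551, 514 and 512 CPM in the low and at 701, 716 and 710 CPM in the medium libraries. It rose by a log2 change of 0.43 ± 0.04 (SE, edgeR adjusted p = 2.42e-13), with the phosphofructokinase PFKP (0.32) and hexokinase HK2 (0.25). They were 3 of 20 tested genes of glycolysis and glucose uptake, against 1.78% of all genes that rose. HK2 lost its call without medium replicate 1 or 3 or low replicate 2 or 3. Of 21 tested glucose sensing and FOXO genes, TXNIP, which restrains glucose uptake, fell by 0.27 on the log2 scale and FOXO1 rose by 0.32. Of all genes 1.57% fell and 1.78% rose. FOXO1 lost its call without medium replicate 1 or low replicate 1. Of 28 tested ATF4 targets, the genes of the amino acid response, 7 rose, against 1.78% of all genes: SLC7A11, SLC7A5 and its partner SLC3A2 (0.34), the asparagine and serine enzymes ASNS (0.24) and PSAT1 (0.22), MTHFD2 (0.18) and GARS1 (0.16). The median over the 28 was 0.15. MTHFD2 lost its call without medium replicate 1 or low replicate 1 or 2, and ASNS without low replicate 2. With no filter on low counts MTHFD2 and GARS1 were not called. SLC7A11 is also in the NRF2 list and SLC7A5 also in the AhR list.

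Immediate-early and ERK feedback genes showed 5 rises and 1 fall among 20 tested, against 1.78% and 1.57% of all genes. FOSL1, a subunit of AP-1, was at 21.6, 22.4 and 24.7 CPM in the low and at 33.3, 33.1 and 34.0 CPM in the medium libraries (log2 change 0.54 ± 0.09, SE, edgeR adjusted p = 2.24e-05). PHLDA1 (0.33), IER3 (0.50), EGR1 (0.35) and DUSP5 (0.48) rose, while the feedback inhibitor SPRY2 fell by 0.27 on the log2 scale. The rises numbered 3 without low replicate 2, and the falls 2 without medium replicate 1.

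Other genes that the naming rule gave on the rising side were LRRN4, ADGRF1, SLC22A3 and PIM1. ADGRF1, an adhesion G protein-coupled receptor, went from 48.7, 44.6 and 38.1 CPM to 107.7, 99.2 and 95.2 CPM (log2 change 1.21 ± 0.07, SE, edgeR adjusted p = 6.22e-18). SLC22A3, an organic cation transporter, rose by 1.16, the serine/threonine kinase PIM1 by 1.10 and the leucine-rich repeat protein LRRN4 by 1.35, each with no overlap between the groups.

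NOX1, the superoxide-producing oxidase of colon epithelium, had the largest fall among called genes with at least 5 CPM in the higher group and no overlap between the groups. It was at 17.8, 15.3 and 16.6 CPM in the low and at 8.56, 7.85 and 8.97 CPM in the medium libraries. All 3 medium values lay far under the lowest low value, a log2 change of -0.96 ± 0.09 (SE, edgeR adjusted p = 2.14e-11). NOX1 lies at chrX:100843324-100874345 (GRCh38, GENCODE 29). Of the 6 NADPH oxidase genes tested it was the only one called, against 1.57% of all genes that fell. Its organiser subunit NOXO1 was at 16.8 to 19.4 CPM in the low and at 11 to 15.1 CPM in the medium libraries, with an edgeR adjusted p of 0.068. It was called lower in 6 of the 13 alternative analyses, among them the 6 libraries alone (edgeR adjusted p = 0.023) and DESeq2 (0.038).

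Of 14 tested Wnt and stem cell genes, which mark the crypt base, 3 fell and none rose, against 1.57% of all genes that fell. EPHB3, a receptor that positions cells along the crypt, was at 23.4, 26.4 and 23.9 CPM in the low and at 15.3, 15.4 and 17.0 CPM in the medium libraries (log2 change -0.63 ± 0.08, SE, edgeR adjusted p = 3.31e-07). PROM1, a surface glycoprotein of stem cells, fell by 0.36 on the log2 scale. ASCL2, a stem cell transcription factor, went from 2.15 to 2.62 CPM to 1.26 to 1.53 CPM. It fell by 0.75 (edgeR adjusted p = 0.0062) and lost its call without medium replicate 1 or low replicate 2. The list's median was -0.11, with 10 log2 changes negative and 4 positive. Among the 11 members not called were the stem cell gene LGR5 (0.054) and the Wnt targets AXIN2 (0.079), RNF43 (-0.020) and SP5 (-0.43).

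Secretory genes gave 2 falls among 18 tested, against 1.57% of all genes, and 1 without medium replicate 2 or low replicate 3. ATOH1, the transcription factor that commits cells to the secretory lineage, was at 3.53, 3.84 and 4.40 CPM in the low and at 2.41, 2.41 and 2.59 CPM in the medium libraries (log2 change -0.68 ± 0.14, SE, edgeR adjusted p = 0.00098). AGR2, an endoplasmic reticulum protein needed for mucin folding, fell by 0.28, and lost its call without medium replicate 1 or 2 or low replicate 3. DLL4, a Notch ligand, was at 5.11, 5.66 and 6.29 CPM in the low and at 2.45, 3.28 and 3.83 CPM in the medium libraries. It fell by 0.84 on the log2 scale (edgeR adjusted p = 0.00017).

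Among 17 tested tight junction and ion transport genes 3 fell, against 1.57% of all genes. The potassium channel subunit KCNE3 was at 60.2, 62.1 and 65.2 CPM in the low and at 42.0, 43.0 and 43.8 CPM in the medium libraries (log2 change -0.54 ± 0.05, SE, edgeR adjusted p = 3.58e-12). The sodium-potassium-chloride cotransporter SLC12A2 fell by 0.47 and the chloride channel CFTR by 0.27, with edgeR adjusted p of 0.016 and 0.0499. Both calls were lost without medium replicate 2, medium replicate 3 or low replicate 3, and CFTR lost its call without any 1 library.

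All 26 tested interferon response genes had negative log2 changes, and 8 of them fell. IRF9, the DNA-binding subunit of the interferon-activated factor ISGF3, was at 13.5, 13.5 and 17.7 CPM in the low and at 7.49, 9.38 and 10.2 CPM in the medium libraries (log2 change -0.73 ± 0.12, SE, edgeR adjusted p = 5.89e-05). OAS2, a synthase of the short RNAs that turn on an antiviral nuclease, was at 6.17, 5.15 and 7.72 CPM in the low and at 2.75, 3.98 and 3.14 CPM in the medium libraries (log2 change -0.96 ± 0.21, SE, edgeR adjusted p = 0.0023). IFIT1 (-0.82), MX1 (-0.77), IFIT3 (-0.42), OAS1 (-0.40), IFITM3 (-0.38) and RIGI (-0.35), all antiviral effectors or sensors, fell too. These 8 of 26 stand against 1.57% of all genes that fell, and the median of the 26 was -0.39. Low replicate 3 had the highest low-dose value of IRF9, OAS2, IFIT1 and MX1. Without it 2 of the 26 were called lower and the median was -0.29; without any other single library 6 to 8 were called. Of 13 tested MHC class I genes none fell, and TAP2, a peptide transporter subunit, rose by 0.17 (edgeR adjusted p = 0.0499), against 1.78% of all genes that rose. TAP2 lost its call with any single library of the 6 left out.

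The naming rule also gave LINC00261, SLC38A11, CD200, GABRP, PTPRO and CHST3 among the falling genes. LINC00261, a long non-coding RNA beside FOXA2, was at 15.2, 13.2 and 16.9 CPM in the low and at 7.19, 8.54 and 7.80 CPM in the medium libraries (log2 change -0.95 ± 0.10, SE, edgeR adjusted p = 3.04e-09). GABRP, a GABA receptor subunit found in epithelia, was at 14.9, 15.3 and 16.1 CPM and then at 7.23, 9.45 and 8.93 CPM. It fell by 0.86 on the log2 scale. The amino acid transporter family member SLC38A11 fell by 0.94, the surface glycoprotein CD200 by 0.94, the receptor tyrosine phosphatase PTPRO by 0.75 and the chondroitin sulfotransferase CHST3 by 0.75. Of 16 tested p53 targets, in a line that carries mutant p53, SESN1 and BTG2 fell by 0.57 and 0.56 and none rose. Of all genes 1.57% fell and 1.78% rose.

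**Figure D3:**
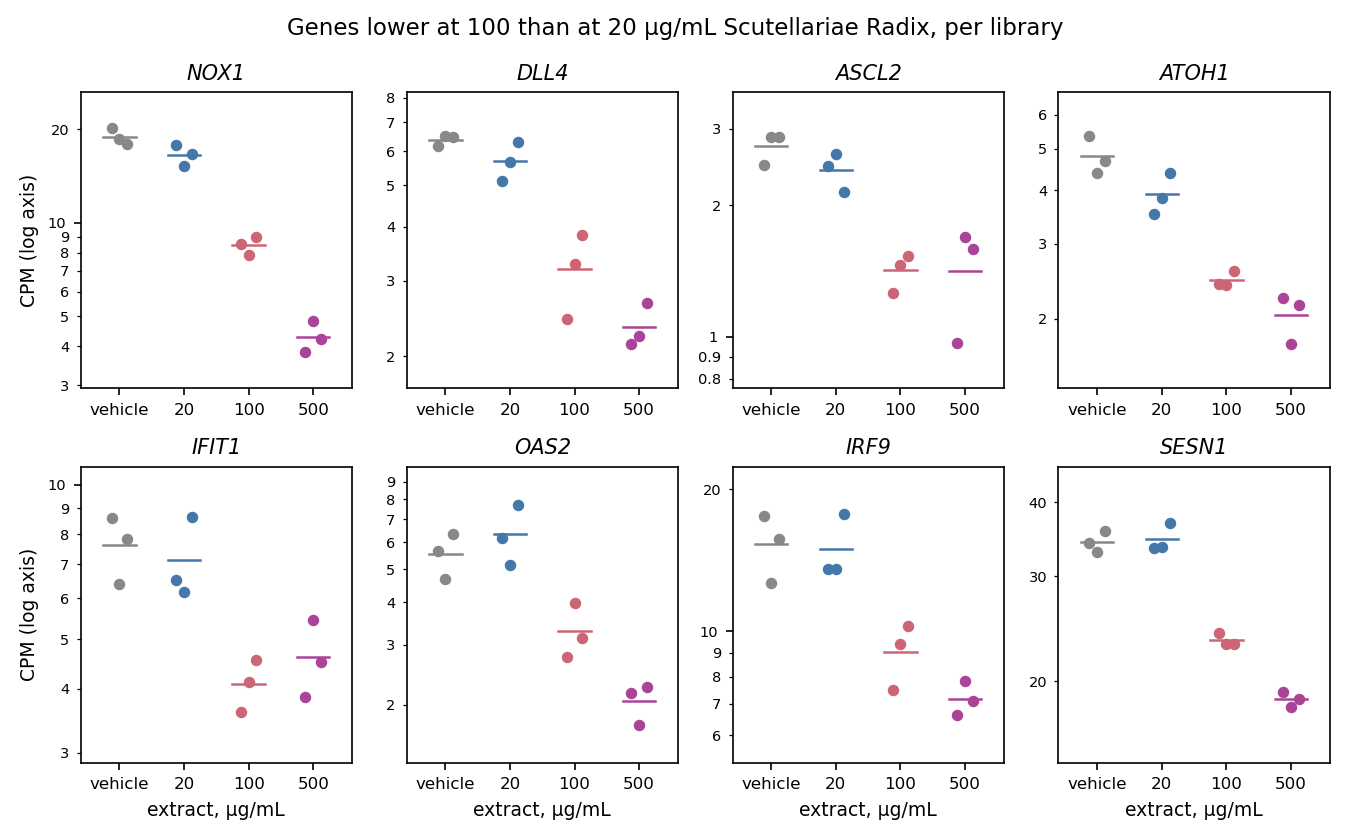
CPM (log axis) of 8 genes in each library of the vehicle and of Scutellariae Radix at 20, 100 and 500 µg/mL; points are libraries, lines are means of 3, and the vehicle is from another set. In each panel the 3 libraries at 100 µg/mL lie under all 3 at 20 µg/mL, and NOX1 and SESN1 are lower still at 500 µg/mL.

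Lists of growth and housekeeping genes had few or no calls. Of all genes tested 3.35% were called, 1.78% higher and 1.57% lower. Each list of this paragraph that held a called gene lay above 3.35%, from 4.76% (lysosome and autophagy) to 22.2% (enterocyte) and 25% (immune markers). None of these lists has more than 26 tested genes, so a single call puts any of them above 3.35%. No conclusion is drawn from these shares. None of 21 mitosis genes, 15 mitochondrially encoded genes, 26 nuclear genes of the respiratory chain, 26 cytosolic ribosomal proteins, 7 metallothionein and zinc genes or 9 LXR genes was called. Their list medians ran from -0.13 (metallothioneins and zinc) to 0.11 (mitochondrially encoded). Of 24 genes of cholesterol synthesis, SQLE (0.17) and STARD4 (0.23) rose, but neither was called without medium replicate 1 or low replicate 3. Of 23 DNA replication genes, ORC1 (0.25) and CDC6 (0.14) rose, but neither was called without medium replicate 1 or 2 or low replicate 2 or 3. Of 20 MYC and ribosome biogenesis genes, NOLC1 (0.19) and WDR43 (0.17) rose. Neither was called with no filter on low counts or without medium replicate 1 or low replicate 3. Single members rose among 16 endoplasmic reticulum chaperones (HSPA5, 0.16), 14 heat shock proteins (HSPH1, 0.23), 12 BCL2 family genes (BMF, 0.56), 19 NF-kB genes and chemokines (BIRC3, 0.43), 21 lysosome and autophagy genes (SQSTM1), 11 fatty acid synthesis genes (ME1) and 14 hypoxia genes (SLC2A1). HSPA5, BIRC3 and SQSTM1 lost their calls without medium replicate 1 or low replicate 3. In the enterocyte list of 18, CEACAM6 (0.40), CA12 (0.14) and KRT20 (0.15) rose and VIL1 fell by 0.14. CA12, KRT20 and VIL1 lost their calls without medium replicate 1 or 3 or low replicate 3. KRT20 and VIL1 were also the only called genes of the 12 epithelial markers. ITGAM, at 1.23 to 1.61 CPM in the low and 2.16 to 2.64 CPM in the medium libraries, was the only called gene among 4 immune, 3 fibroblast and 2 endothelial markers tested.

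The next dose step, 500 against 100 µg/mL, shares the medium libraries with the step above, so its values are only set beside it. At that step 845 genes were called (5.09% of those tested), 408 higher (2.46%) and 437 lower (2.63%). CYP1A1, CYP1B1 and ALDH1A3 were lower at the high than at the medium dose, by log2 changes of -1.48, -0.68 and -1.26. LRRN4 (-0.98), PIM1 (-0.30) and ADGRF1 (-0.27) were lower too, so 6 of the 12 rising genes of the naming rule had their highest level at the medium dose. ALDH3A1 was the only one of the 12 called higher again (0.36). Of the 10 tested AhR targets, 2 were higher and 3 lower at this step. Of the 16 NRF2 targets 10 were higher and none lower, with SLC7A11 (0.54), HMOX1 (0.66), GCLC (0.43) and GCLM (0.31) among them. AKR1B10 (0.62) and AKR1C1 (0.87) were higher again as well. Of 24 cholesterol synthesis genes, 20 were higher at the high than at the medium dose. NOX1 fell again by 1.00 on the log2 scale, to 3.83, 4.82 and 4.21 CPM, and 7 of the 12 falling genes of the naming rule were lower again.

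Vehicle means lay close to those of the low dose for GCLM and SESN1 and under them for CYP1A1 and CYP1B1. No count over all genes was made. GCLM had a mean of 65.0 CPM in the vehicle and 64.4 CPM at the low dose, and SESN1 34.3 and 34.7 CPM. For CYP1A1 the means were 0.56 ± 0.12 CPM (SD, n = 3) in the vehicle and 2.89 ± 0.96 CPM at the low dose. For CYP1B1 they were 48.0 ± 1.5 and 109 ± 24.7 CPM. Set and treatment cannot be told apart in these pairs.

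The Pinelliae Tuber extract, made from another plant, was given at the same doses in libraries with the same set code, and shares none of them with the Scutellariae Radix step. Between its 100 and 20 µg/mL groups no gene was called by edgeR, and 335 had an unadjusted p below 0.05. Total counts were 11.09, 17.74 and 32.28 M in the Pinelliae Tuber low and 30.97, 25.61 and 34.45 M in its medium libraries. An effect of this uneven depth was not tested. Tested directly, the difference between the steps of the extracts was called in 136 genes (0.819% of those tested), 73 with the larger value in Scutellariae Radix and 63 with the smaller. Of the 136, 133 were called in the Scutellariae Radix step itself, which is part of the difference tested. CYP1A1 was at 0.48 to 0.62 CPM in the Pinelliae Tuber low and at 0.45 to 0.61 CPM in its medium libraries, and its step in Scutellariae Radix was larger by 5.84 ± 0.47 (log2, SE, edgeR adjusted p = 4.76e-13). For NOX1 the Pinelliae Tuber libraries were at 17.9 to 20.6 and 17.8 to 19.5 CPM, and the difference was -0.91 ± 0.12 (SE, edgeR adjusted p = 1.22e-06). The difference was called for 11 of the 12 rising genes of the naming rule, SULT1A4 being the exception, and for 8 of the 12 falling genes. OAS2, DLL4, IFIT1 and MX1 were not among these (edgeR adjusted p from 0.066 to 0.42). The genes of the naming rule were picked for large changes in the Scutellariae Radix step, and the same libraries enter the difference. These counts are therefore no independent support for a difference between the extracts.

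By list, against 0.819% of all genes tested, the difference was called in 7 of the 10 AhR targets and 8 of the 16 NRF2 targets. It was called in 1 of the 26 interferon genes, IRF9 (-0.65, edgeR adjusted p = 0.046). That call was lost with only the libraries compared (edgeR adjusted p = 0.082) and without medium replicate 1 (0.221), medium replicate 2 (0.07) or low replicate 3 (0.352) of Scutellariae Radix. The difference was also called for EPHB3, PROM1 and ASCL2 (-0.54, -0.35 and -1.10) and for KCNE3 (-0.56). The Scutellariae Radix step, in which these genes were called, is part of the difference. These calls and the list counts above are therefore no independent support for a difference between the extracts. For the genes called in Scutellariae Radix, the Pinelliae Tuber step had log2 changes from -0.93 to 1.38, with a median absolute value of 0.044.

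**Figure D4:**
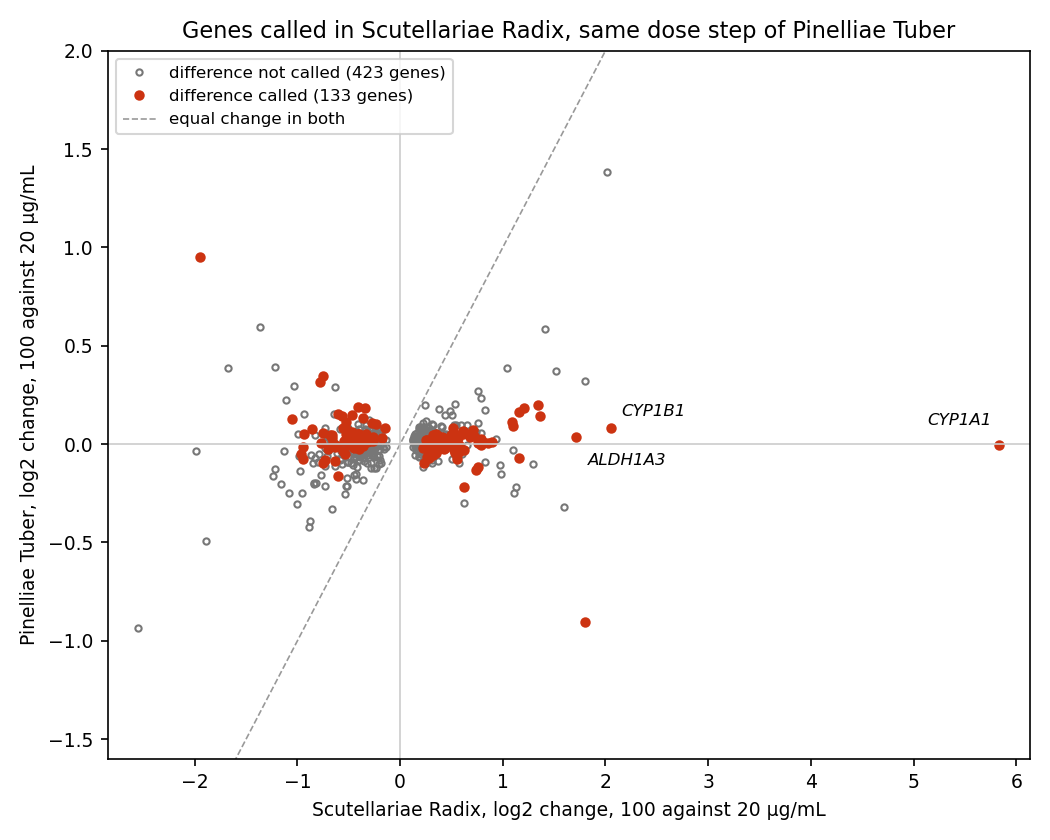
Log2 change at 100 against 20 µg/mL in Scutellariae Radix (horizontal axis) and in Pinelliae Tuber (vertical axis) for the 556 genes called in Scutellariae Radix; filled points are the 133 genes whose difference between the extracts was called by edgeR, open points the other 423. Most points lie near 0 on the vertical axis, and CYP1A1 stands alone at the right.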

How the data were processed

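Total RNA of HT29 cells was sequenced with 100 bp paired-end reads from a directional mRNA library kit, per the labels' protocols. The authors deposited expected counts per Ensembl gene in 1 table of 60675 genes. Trim Galore 0.6.5, STAR 2.7.3a, RSEM 1.3.3 and the build GRCh38 are named in the submitters' processing notes; the annotation release and the strand setting are not given in the sources used here. Of the table's columns 60 matched the labels, and 210 were not used. The values (8.76% not whole) were rounded. Gene positions came from GENCODE 29 and promoters from RefSeq.

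edgeR 4.0.16 (TMM scaling, filterByExpr, robust quasi-likelihood F test) was fitted to all 60 libraries with 1 coefficient per group of 3, which left 40 residual degrees of freedom and a common dispersion of 0.0044. P-values were adjusted by Benjamini-Hochberg over the 16608 genes tested and called below 0.05. The standard error is the absolute log2 change divided by the square root of F. The fit was tested on simulated counts. DESeq2 1.42.0, another scaling, no filter on low counts, fewer libraries, a replicate block and leaving out each of the 6 libraries were alternatives. None of the 6 libraries compared was a copy of another.

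Named genes were called genes with at least 5 CPM in the higher group and no overlap between the groups, the 12 largest changes in each direction, plus the members with the smallest p of each gene list, and AHR and AHRR for their roles. SULT1A3 was added after its values were seen. Further called list members are named so that small counts can be read; a few are not reported here. The members and lists were chosen with earlier results of these data known.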

Additional observations from a re-analysis of the deposited data

Results flagged for a closer look

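The step from 20 to 100 µg/mL differed between Scutellariae Radix and Pinelliae Tuber in 136 genes by edgeR's test of the difference itself, which is why these results are set apart. Among the rising genes of the naming rule the log2 difference between the extracts was 5.84 for CYP1A1, 1.97 for CYP1B1, 1.68 for ALDH1A3, 1.22 for ALDH3A1 and 1.23 for SLC22A3. It was 1.15 for LRRN4, 1.02 for ADGRF1, 1.01 for PIM1, 1.00 for CYP1B1-AS1, 0.98 for TIPARP and 0.88 for EREG. Among the falling genes it was -0.91 for NOX1, -0.93 for LINC00261, -0.87 for SLC38A11, -0.99 for CD200 and -0.93 for GABRP. It was -0.66 for PTPRO, -0.80 for CHST3 and -0.65 for IRF9. All of these genes were picked by the Scutellariae Radix step, which is part of the difference. Of the 19, 17 kept the call of the difference in every alternative, and LRRN4 and IRF9 lost it. LRRN4 lost it with no filter on low counts (edgeR adjusted p = 0.075). The same happened to LRRN4 without medium replicate 1 (0.081), low replicate 1 (0.058) or low replicate 3 (0.126) of Scutellariae Radix. Groups of 3 libraries are too small to single out one library as standing apart.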

How the results depend on the processing

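The count of genes called between the medium and low dose (556, with 295 higher and 261 lower) was within 1.5 times its value with the 6 libraries alone, with the DESeq2 Wald test, with its size factors and with genes of low counts kept. With only the 9 Scutellariae Radix libraries it was 883, with 474 higher and 409 lower. Leaving out 1 library in turn gave 306 to 438 called genes, 169 to 245 higher and 137 to 203 lower, on fewer libraries; it was lowest without low replicate 3. A replicate block over all libraries gave 559 called genes. A replicate block with only the 6 libraries gave 824, with 398 lower. The replicate numbers share only a number: same-numbered medium and low libraries correlated in their deviations at 0.076, -0.00038 and 0.072, and not every library correlated best with its own number. The difference from Pinelliae Tuber (136 genes) had 99 genes lower with no filter on low counts and 99 with the replicate block on only the libraries compared, against 63. Of 130 list and named genes called in the medium against low step, 83 kept their call in every alternative that tested them, 47 lost it in at least 1, and none of the 130 changed sign. Among the 26 interferon genes, 11 were called lower with the 6 libraries alone and 14 with the 9 Scutellariae Radix libraries. The causes were not tested.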

Other observations

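Some called genes outside the lists were picked after their values were seen, and are given as values. No count over their families was made. AREG, an EGF receptor ligand, was at 39.9, 41.3 and 47.2 CPM in the low and at 61.4, 67.8 and 72.9 CPM in the medium libraries, a log2 change of 0.65 ± 0.13 (SE, edgeR adjusted p = 0.00059). TGFA, another EGF receptor ligand, rose by 0.27, and the receptor tyrosine kinase MET by 0.33. MET lost its call without medium replicate 1 or low replicate 3 (edgeR adjusted p = 0.130 and 0.084). FGF19, the gut hormone that restrains bile acid synthesis in the liver, was at 63.2, 63.2 and 65.2 CPM in the low and at 89.8, 94.5 and 92.4 CPM in the medium libraries (log2 change 0.53 ± 0.07, SE, edgeR adjusted p = 7.80e-08). PTGS2, which makes prostaglandins, rose by 0.55 and was lower again at the high dose by 0.42 on the log2 scale. VIPR1, a receptor for vasoactive intestinal peptide, rose by 0.72, THBS1, thrombospondin, by 0.76, the fatty aldehyde dehydrogenase ALDH3A2 by 0.62 and the water channel AQP3 by 0.51. NAMPT, the NAD salvage enzyme, rose by 0.50, beside its pseudogene NAMPTP1 (0.76), whose reads may come from NAMPT.

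Further genes picked in the same way follow. FOXA2, a transcription factor and the neighbour of LINC00261, was at 8.52, 11.6 and 10.6 CPM in the low and at 5.16, 6.80 and 8.02 CPM in the medium libraries (log2 change -0.63 ± 0.12, SE, edgeR adjusted p = 0.00066). HNF4G fell by 0.25 on the log2 scale and lost its call in 5 of the 6 analyses with 1 library left out (edgeR adjusted p from 0.061 to 0.0999), and KLF5 rose by 0.26. The sodium-glucose cotransporter SLC5A1 fell by 0.53, monoamine oxidase MAOA by 0.53, the receptor FGFR2 by 0.45 and the integrin ITGA1 by 0.43. The alcohol dehydrogenase ADH1C went from 2.06 to 2.5 CPM in the low to 0.84 to 1.24 CPM in the medium and to 0.053 to 0.069 CPM in the high libraries. ADH6, a related enzyme, fell by 0.72.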
